A study of Mus musculus with 4 samples.

Results

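Transcripts of the protein kinase C (PKC) and protein kinase D (PKD) genes were measured in quadriceps muscle of WT and Mef2dα2 Eko mice. The members were the 10 rows of the deposited gene table whose symbol is *Prkca*, *Prkcb*, *Prkcd*, *Prkce*, *Prkch*, *Prkcq*, *Prkci*, *Prkcz*, *Prkd1* or *Prkd2*, out of 51826 rows in all. Each symbol stood on a single row, and all 10 had enough counts to be among the 16120 genes tested. RNA came from 4 sedentary male mice of about 20 weeks of age on the C57BL6/J background, 2 WT and 2 Mef2dα2 Eko, with 1 polyA library per mouse. Mef2dα2 Eko mice lack both copies of the α2 exon of *Mef2d*, the exon that gives the muscle form of the transcription factor MEF2D. The exon was removed in the germline with CRISPR-Cas9, so every tissue of these mice carries the deletion, and their transcripts take the alternative α1 exon instead. Both genotypes were littermates on standard chow, and the labels do not give the founder line of the sequenced mice.

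PKC enzymes are serine/threonine kinases that muscle fibers use downstream of receptors and calcium release. Conventional forms respond to calcium and the lipid diacylglycerol, calcium-independent forms to diacylglycerol alone, and atypical forms to protein partners instead. PKD kinases are phosphorylated by calcium-independent PKC enzymes, and class IIa histone deacetylases, which repress MEF2 factors, are known PKD substrates. PKC theta, the product of *Prkcq*, is known as an abundant PKC of skeletal muscle and also serves T cell signalling.

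Total expected counts were between 72626757 and 85176059 per library, and a floor of 3 counts corresponded to between 0.0348 and 0.0420 CPM (counts per 1e+06 counts of the library). Levels in CPM were scaled by TMM normalization. Differences are log2 fold changes of Mef2dα2 Eko against WT from the quasi-likelihood fit of edgeR, and adjusted p-values are by Benjamini-Hochberg over all genes tested. With 2 mice on each side, a two-sided exact permutation test could reach no p under 0.333. *Mef2d* itself had 19687 and 18393 counts in WT muscle against 21695 and 17206 in Mef2dα2 Eko muscle, which does not check the genotype because counts per gene do not separate the exons. Muscle fiber markers were abundant in every library, with 10 markers summing to between 115600 and 120500 CPM. In whole muscle, fewer cells of a type and less RNA per cell cannot be told apart.

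None of the 10 members passed an adjusted p of 0.05 with edgeR, where 67 of the 16120 genes (0.416%) passed. At an unadjusted p under 0.05 there were 3 members, *Prkcd* and *Prkca* on the lower side and *Prkcq* on the higher side, where 11.6% of all genes had such a p (6.41% lower and 5.15% higher). DESeq2, the tool of the study, called 2 members, *Prkca* and *Prkcd*, among 318 of the 16120 genes. This DESeq2 run was made here, and its calls are not the list that the study reported. Both Mef2dα2 Eko mice lay below both WT mice for 3 members and above them for 2, so the genotypes did not overlap for 5 of 10 members, where 43.8% of all genes showed no overlap (23% below and 20.8% above). The median log2 fold change was -0.024 over the 10 members and -0.005 over all genes tested.

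Per length, the *Prkcq* and *Prkca* transcripts made up most of the RNA of the 10 members. To compare genes, CPM was divided by the length of the longest coding transcript in kilobases (kb). On this scale the WT level was 19.1 ± 0.998 CPM per kb for *Prkcq* and 12.7 ± 0.430 CPM per kb for *Prkca* (SD, n = 2 mice). *Prkcd* and *Prkce* followed with 3.28 ± 0.0464 and 3.12 ± 0.0153 CPM per kb, then *Prkch* with 1.35 ± 0.114 and *Prkd2* with 1.18 ± 0.320 CPM per kb. The lowest were *Prkci* at 0.624 ± 0.0166, *Prkd1* at 0.387 ± 0.0172, *Prkcz* at 0.324 ± 0.103 and *Prkcb* at 0.0808 ± 0.0119 CPM per kb. In this order, *Prkch* did not differ from *Prkd2*, nor *Prkd1* from *Prkcz*, beyond the spread between WT mice. With the length of all exons joined in place of the longest coding transcript, *Prkca* (11.8 CPM per kb) stood before *Prkcq* (9.64), *Prkce* before *Prkcd* and *Prkd2* before *Prkch*, so the order within these neighbours depends on the length used. Among 13282 tested genes with a coding length, *Prkcq* lay at the 87.1 percentile of WT levels per kb and *Prkcb* at the 5.35 percentile.

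**Figure D1:**
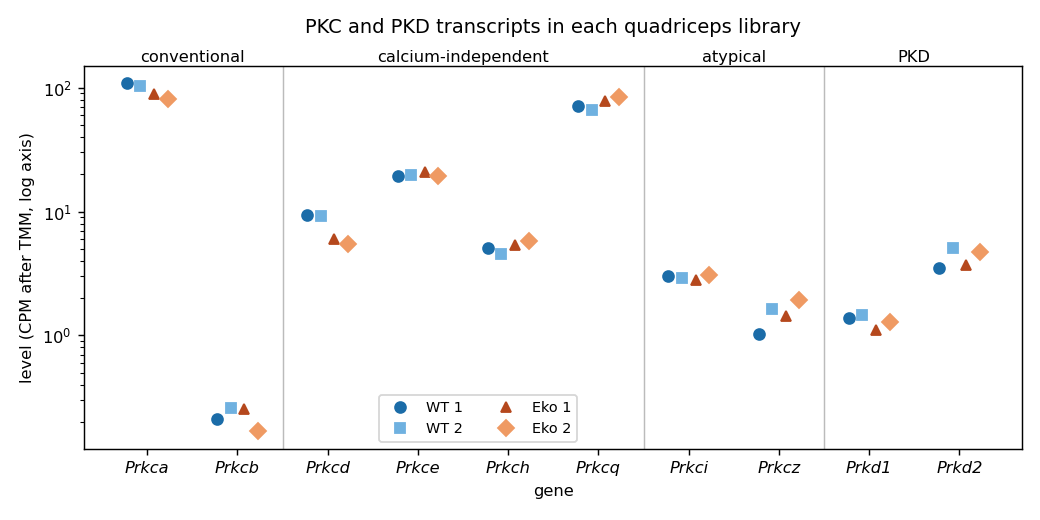
Level of each PKC and PKD gene in CPM on a log axis, with 1 point per library (blue WT, orange Mef2dα2 Eko) and the genes grouped by class. *Prkca* and *Prkcq* lie above 65 CPM in every library and *Prkcb* at no more than 0.260 CPM, and the orange points of *Prkcd* and *Prkca* lie under the blue ones.

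*Prkcd* had the log2 fold change of greatest size among the members and was lower in both Mef2dα2 Eko mice. It encodes PKC delta, a calcium-independent form expressed in many tissues and strongly in myeloid cells. The gene (ENSMUSG00000021948.17) occupies bases 30595354 to 30626210 of chromosome 14 in GRCm38, minus strand, and overlaps no other annotated gene. *Prkcd* had 717 and 749 counts in WT muscle against 517 and 391 in Mef2dα2 Eko muscle. These were 9.45 and 9.26 CPM in WT muscle against 6.0 and 5.47 CPM in Mef2dα2 Eko muscle, so both Mef2dα2 Eko libraries stood well below WT libraries that were nearly alike. The Mef2dα2 Eko mean was 61.3% of the WT mean, a log2 fold change of -0.71 (standard error 0.11, 95% interval -0.96 to -0.46). The adjusted p was 0.0619 with edgeR, just over the threshold, and 0.000750 with DESeq2. *Prkcd* passed the threshold under 7 of 13 alternatives, and leaving out single mice gave log2 fold changes from -0.76 (without Mef2dα2 Eko replicate 1) to -0.64 (without Mef2dα2 Eko replicate 2).

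Macrophage markers were on the lower side together with *Prkcd*. Of 6 markers, *Csf1r*, *Cd68*, *C1qa* and *Cd163* were lower in both Mef2dα2 Eko libraries than in both WT libraries, while *Adgre1* and *Mrc1* overlapped. None of the 6 passed the adjusted threshold with edgeR, and 4 had an unadjusted p under 0.05, where 11.6% of all genes had one. Their summed level was 32.0 and 26.1 CPM in WT muscle against 24.5 and 17.7 CPM in Mef2dα2 Eko muscle. Relative to the WT mean, the markers together were at 110% and 89.8% in WT muscle against 84.6% and 61.1% in Mef2dα2 Eko muscle, whereas *Prkcd* was at 101% and 99.0% against 64.1% and 58.4%. The part of macrophages in the difference of *Prkcd* was not tested.

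**Figure D2:**
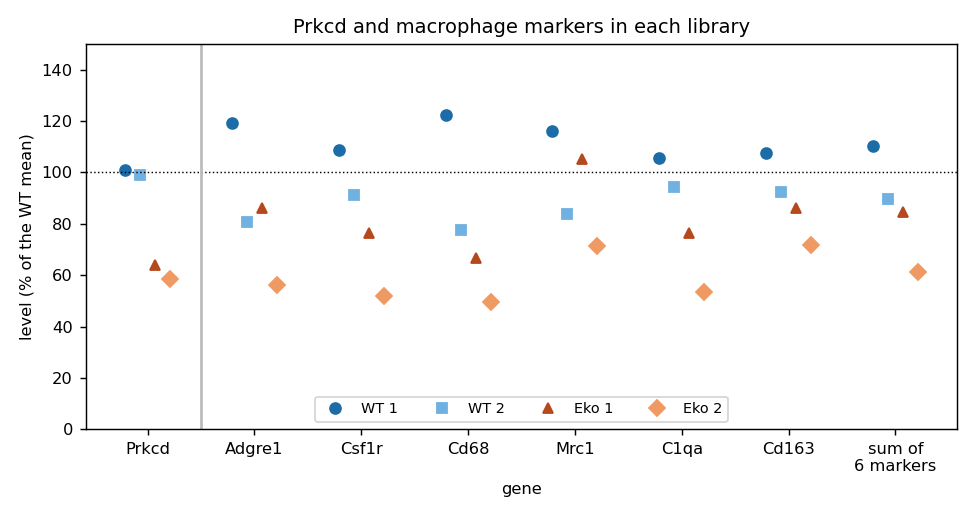
Level of *Prkcd*, of 6 macrophage markers and of their sum in each library, as a percentage of the mean of the WT libraries (dotted line at 100%). The *Prkcd* points lie at 101% and 99.0% for WT and at 64.1% and 58.4% for Mef2dα2 Eko, while the marker sum runs from 110% in WT replicate 1 to 61.1% in Mef2dα2 Eko replicate 2.

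*Prkca*, which encodes the conventional form PKC alpha, was also lower in both Mef2dα2 Eko mice. The gene (ENSMUSG00000050965.14) occupies bases 107933387 to 108343928 of chromosome 11, minus strand, and overlaps *Apoh*, *Gm11655*, *Gm11657* and *Mir7223* on the other strand. Libraries held 8267 and 8397 counts in WT muscle against 7599 and 5836 in Mef2dα2 Eko muscle, or 109 and 104 CPM against 88.1 and 81.6 CPM. The lower of the WT libraries was above the higher of the Mef2dα2 Eko libraries, and the Mef2dα2 Eko mean came to 79.8% of WT, which is a log2 fold change of -0.33 (standard error 0.07, 95% interval -0.50 to -0.16), with adjusted p-values of 0.178 from edgeR's quasi-likelihood test and 0.0184 from DESeq2. Leaving out single mice gave log2 fold changes from -0.37 to -0.27.

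*Prkcq* stood in the other direction. The gene (ENSMUSG00000026778.13) occupies bases 11172108 to 11301222 of chromosome 2, plus strand, and overlaps *Gm37520* on the other strand and *Gm36932* and *Gm37766* on its own. It had 5372 and 5316 counts in WT muscle against 6700 and 6010 in Mef2dα2 Eko muscle, or 70.8 and 65.7 CPM against 77.7 and 84.0 CPM. Both Mef2dα2 Eko libraries were above both WT libraries, by less in replicate 1 than in replicate 2. The log2 fold change was 0.25 (standard error 0.08, 95% interval 0.06 to 0.42), with an adjusted p of 0.301 from edgeR, and *Prkcq* passed under none of the 13 alternatives, in which the adjusted p ran from 0.103 to 0.724. The T cell markers *Cd3g*, *Cd3d*, *Lck* and *Themis* had at most 6 counts in any library, and *Cd3e* and *Cd2* overlapped between the genotypes. The sum of the 6 T cell markers lay between 2.15 and 2.58 CPM in all 4 libraries. Most of it was *Cd3e* alone, at 1.90 and 2.39 CPM in WT muscle against 2.41 and 2.07 CPM in Mef2dα2 Eko muscle.

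Ratios of counts within a library need no scaling and restate the differences above. The ratio of *Prkcq* to *Prkca* counts was 0.650 and 0.633 in WT muscle against 0.882 and 1.03 in Mef2dα2 Eko muscle. The ratio of *Prkcd* to *Prkce* counts was 0.485 and 0.473 in WT muscle against 0.285 in Mef2dα2 Eko muscle of both mice. Both ratios were picked with the values known, so that the genotypes did not overlap in them is no separate result. *Prkcq* took 45.3 ± 1.15% of the summed CPM per kb of the 10 members in WT and 53.7 ± 1.97% in Mef2dα2 Eko mice (SD, n = 2 mice). *Prkca* took 30.1 ± 0.208% and 24.0 ± 1.76%, and *Prkcd* 7.80 ± 0.101% and 4.78 ± 0.401%. The sum itself was 42.1 ± 1.14 CPM per kb in WT and 42.1 ± 0.783 CPM per kb in Mef2dα2 Eko mice, a difference smaller than the spread between mice.

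**Figure D3:**
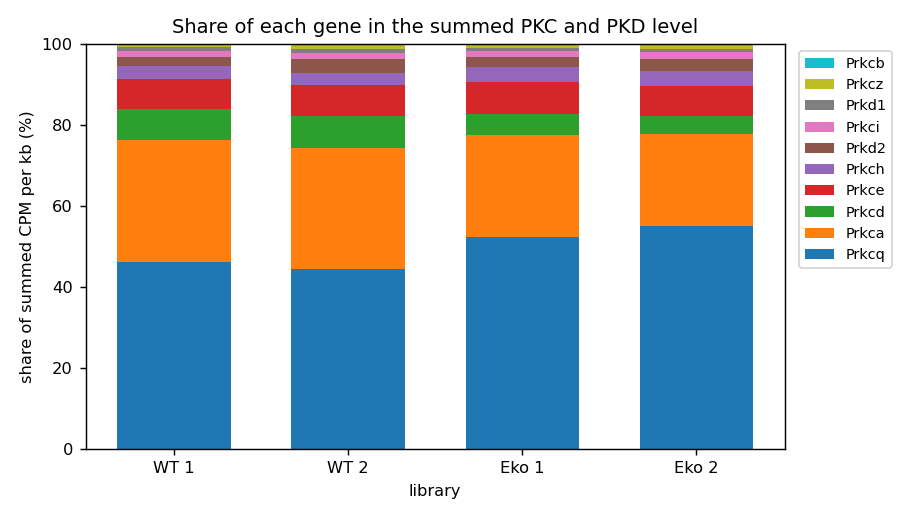
Stacked bars of the share of each gene in the summed level (CPM per kb of coding transcript) of the 10 PKC and PKD genes, with 1 bar per library. The *Prkcq* share averages 45.3% in WT and 53.7% in Mef2dα2 Eko libraries, and the *Prkca* share 30.1% and 24.0%.

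The promoters of these 3 genes are shown because the deletion changes a DNA-binding MEF2 factor and their transcripts had the smallest p-values among the members. The windows are the 250 bases before a RefSeq start site on GRCm38.p6, written 5′ to 3′ on the strand of the gene, at chr14:30626209-30626458 for *Prkcd*, chr11:108343889-108344138 for *Prkca* and chr2:11172132-11172381 for *Prkcq*. Capitals mark E-boxes (CANNTG, searched on both strands), the general pattern of sites for bHLH factors. Muscle bHLH factors such as MYOD bind some sequences of this pattern and not every one.
Prkcd: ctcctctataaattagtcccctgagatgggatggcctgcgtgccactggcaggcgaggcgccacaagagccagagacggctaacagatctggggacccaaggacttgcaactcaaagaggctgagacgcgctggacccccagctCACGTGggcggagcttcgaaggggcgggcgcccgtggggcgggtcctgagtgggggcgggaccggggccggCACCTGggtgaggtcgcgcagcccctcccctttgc
Prkca: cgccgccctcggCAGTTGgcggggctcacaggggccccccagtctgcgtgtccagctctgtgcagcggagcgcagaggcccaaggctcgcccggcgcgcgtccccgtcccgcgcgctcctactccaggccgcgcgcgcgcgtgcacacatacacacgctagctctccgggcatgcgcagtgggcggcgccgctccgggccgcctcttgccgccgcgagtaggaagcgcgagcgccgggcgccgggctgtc
Prkcq: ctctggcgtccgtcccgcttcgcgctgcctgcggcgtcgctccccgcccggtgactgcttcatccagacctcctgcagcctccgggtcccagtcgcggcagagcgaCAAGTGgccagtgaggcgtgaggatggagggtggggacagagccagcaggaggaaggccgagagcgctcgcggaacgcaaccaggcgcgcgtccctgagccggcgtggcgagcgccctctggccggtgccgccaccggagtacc
The printed *Prkcd* window holds 2 E-boxes, and the *Prkca* and *Prkcq* windows 1 each. RefSeq also gives *Prkcd* a start site inside the gene, and the 250 bases before it (chr14:30610311-30610560, not printed) hold 3 E-boxes. RefSeq gave 12 windows of 300 bases for 8 of the 10 members, each reaching 50 bases past the start. *Prkcd*, *Prkcz* and *Prkd2* had more than 1 window each. The *Prkd2* windows overlap, so a match in their shared bases counts in both. Among all 32851 such windows, 72.3% held an E-box, as did 10 of the 12. The MEF2 site, searched on both strands, was in none of the 12 and in 3.19% of all windows, and the AP-1 site TGANTCA, which phorbol esters are known to act through, was in none of the 12 and in 7.81% of all. The GC box GGGCGG was in 10 of the 12 and in 35.7% of all windows, and the CRE TGACGTCA in 1 of the 12, a *Prkcz* window, and in 1.79% of all, both searched on both strands. The printed windows had a GC content of 76.8% for *Prkca*, 72.4% for *Prkcq* and 67.6% for *Prkcd*, and the other *Prkcd* window one of 50.8%. A match or its absence describes the letters of these windows alone.

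The other calcium-independent members did not pass the test at an unadjusted p under 0.05. *Prkce* (chr17:86167785-86657919, plus strand), which encodes PKC epsilon, had 1477 and 1585 counts in WT muscle against 1811 and 1374 in Mef2dα2 Eko muscle. At 19.5 and 19.6 CPM against 21.0 and 19.2 CPM the genotypes overlapped, and the log2 fold change was 0.04 (95% interval -0.15 to 0.23). The gene overlaps *2010106C02Rik* and *Gm10309* on the other strand and *AC154542.1* on its own. *Prkch* (chr12:73584796-73778185, plus strand) encodes PKC eta, a form also known from endothelium and lymphocytes. It had 385 and 364 counts in WT muscle against 463 and 416 in Mef2dα2 Eko muscle, or 5.07 and 4.50 CPM against 5.37 and 5.82 CPM. Both Mef2dα2 Eko values were above both WT values by a small margin, and the log2 fold change was 0.22 (95% interval -0.08 to 0.52), with an adjusted p of 0.549 from edgeR. The endothelial markers summed to 160 and 145 CPM in WT muscle against 139 and 155 CPM in Mef2dα2 Eko muscle, which overlap.

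*Prkcb* (chr7:122288751-122634402, plus strand), the conventional form PKC beta of leukocytes and neurons, was near the limit of detection. It had 16 and 21 counts in WT muscle against 22 and 12 in Mef2dα2 Eko muscle, at most 0.260 CPM, and the genotypes overlapped. The 95% interval of its log2 fold change was -1.27 to 0.98, and a difference within it was not detectable at this depth. B cell markers were at or below 0.223 CPM in sum, and neutrophil markers at or below 0.250 CPM.

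The atypical members were low in both genotypes. *Prkci* (chr3:30995747-31052959, plus strand), which encodes PKC iota, a kinase of the cell polarity complex, had 227 and 233 counts in WT muscle against 241 and 219 in Mef2dα2 Eko muscle. The *Prkci* level was 2.94 ± 0.0780 CPM in WT and 2.93 ± 0.189 CPM in Mef2dα2 Eko mice (SD, n = 2 mice), and the 95% interval of the log2 fold change was -0.36 to 0.35. *Prkcz* (chr4:155260129-155361361, minus strand), which encodes PKC zeta, had 78 and 131 counts in WT muscle against 123 and 138 in Mef2dα2 Eko muscle. WT replicate 1 was the lowest and Mef2dα2 Eko replicate 2 the highest, and the genotypes overlapped, with a log2 fold change of 0.34 (95% interval -0.35 to 1.02). Without WT replicate 1 the log2 fold change of *Prkcz* was 0.05, and without WT replicate 2 it was 0.72.

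*Prkcz* counts also depend on how reads were divided with *Prkcz2*, a processed pseudogene on chromosome 7 of GRCm38 from 27882755 to 27884510. Of the windows of 50 bases along the longest coding *Prkcz* transcript, 18.4% also occur in *Prkcz2*, and the aligned 1426 bases are 98.6% identical. The longest identical run, 302 bases, lies inside the *Prkcz* coding sequence, from base 1112 to base 1413 of transcript Prkcz-202. The 60 bases at its centre, from base 1233 to base 1292, are shown because a read that holds only these bases cannot be assigned to either gene.
Prkcz and Prkcz2: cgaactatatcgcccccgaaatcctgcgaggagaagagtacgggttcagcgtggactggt
*Prkcz2* had 45 and 39 counts in WT muscle against 67 and 40 in Mef2dα2 Eko muscle. With both genes added there were 123 and 170 counts in WT muscle against 190 and 178 in Mef2dα2 Eko muscle, or 1.62 and 2.10 CPM against 2.20 and 2.49 CPM, and the genotypes then did not overlap, by a margin smaller than the gap between the WT mice. For 7 other members no window of 50 bases occurs in another gene, and for *Prkce* and *Prkci* 0.548% and 0.859% of the windows do, each shared with many genes.

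The PKD members were low as well. *Prkd1* (chr12:50341231-50649098, minus strand) had 104 and 118 counts in WT muscle against 96 and 92 in Mef2dα2 Eko muscle, or 1.37 and 1.46 CPM against 1.11 and 1.29 CPM. The values did not overlap, but the 95% interval of the log2 fold change, -0.76 to 0.28, includes 0. *Prkd2* (chr7:16842902-16870464, plus strand) had 264 and 414 counts in WT muscle against 318 and 334 in Mef2dα2 Eko muscle. Its WT mice were 3.48 and 5.12 CPM and enclosed the Mef2dα2 Eko mice at 3.69 and 4.67 CPM, with a 95% interval of the log2 fold change from -0.55 to 0.46.

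**Figure D4:**
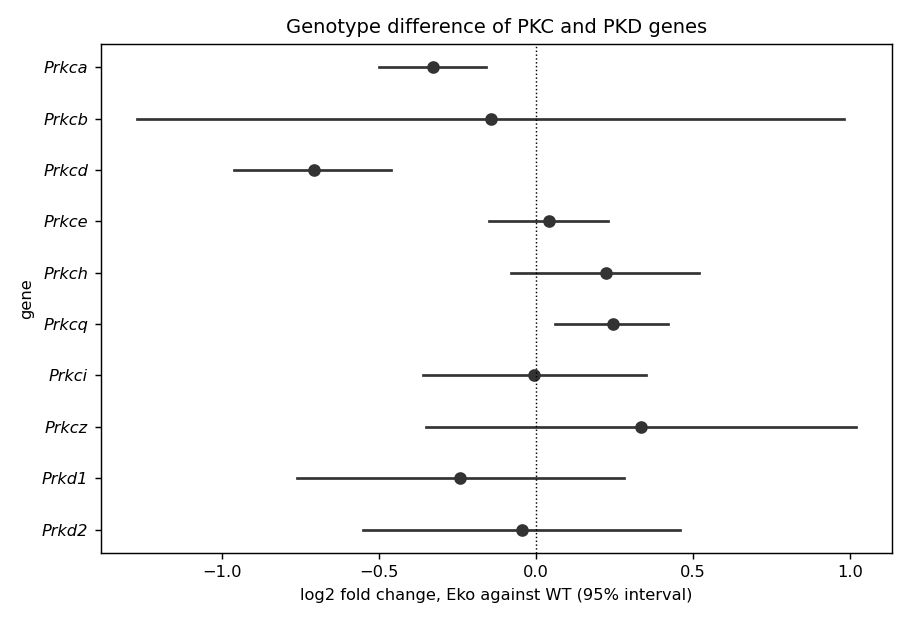
Log2 fold change of Mef2dα2 Eko against WT with its 95% interval from edgeR's quasi-likelihood fit, for the 10 members. Unadjusted intervals lie clear of 0 for *Prkcd* (-0.96 to -0.46), *Prkca* (-0.50 to -0.16) and *Prkcq* (0.06 to 0.42).

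*Prkd3*, *Pkn2* and *Pkn3* encode related kinases outside the members. *Prkd3*, the remaining PKD gene, was at 11.02 and 11.04 CPM in WT muscle against 11.8 and 11.97 CPM in Mef2dα2 Eko muscle, and per kb it stood above *Prkd2* and *Prkd1* in WT, at 1.88 CPM per kb. Its log2 fold change was 0.11 (95% interval -0.09 to 0.31). *Pkn2*, at 56.9 ± 0.375 CPM in WT and 58.2 ± 3.28 CPM in Mef2dα2 Eko mice (SD, n = 2 mice), and *Pkn3* overlapped between the genotypes. None of the 3 had an unadjusted p under 0.05.

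Genes around the kinases were read from lists. Over all lists, 110 genes stood on the lists, 101 were tested and none passed the adjusted threshold with edgeR, where 0.416% of all genes did. Of the 101, 12 had an unadjusted p under 0.05, 8 lower and 4 higher, where 11.6% of all genes had one. DESeq2 called 2 of the 101, *Ppp1r14c* and *Unc13c*, where it called 318 of all 16120 genes. Both Mef2dα2 Eko mice lay below both WT mice for 25 of the 101 and above them for 20, where 23% and 20.8% of all genes did so. Their median log2 fold change was -0.013.

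Phospholipase C enzymes, which receptors switch on through Gq proteins, make diacylglycerol. Of 18 phospholipase C and Gq genes 15 were tested, with a median log2 fold change of -0.02. *Plcl2*, a phospholipase C relative without catalytic activity, was at 106 ± 4.39 CPM in WT and 105 ± 0.700 CPM in Mef2dα2 Eko mice (SD, n = 2 mice), and *Plcd4* was at 99.8 ± 8.40 and 95.8 ± 3.83 CPM. *Plch2* alone had an unadjusted p under 0.05, at 0.395 and 0.680 CPM in WT muscle against 0.232 and 0.280 CPM in Mef2dα2 Eko muscle. Of 10 diacylglycerol kinases, which end the signal by phosphorylating the lipid, 8 were tested and none had an unadjusted p under 0.05. *Dgkz* differed between mice of a genotype, at 36.4 and 25.1 CPM in WT muscle against 35.3 and 23.8 CPM in Mef2dα2 Eko muscle, and *Dgkd* was at 31.5 ± 0.785 and 29.9 ± 1.94 CPM.

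PKC enzymes mature by phosphorylation and chaperoning, and 13 genes of these steps and their reversal were tested, with a median of -0.01. *Pdpk1*, the kinase of the activation loop, was at 50.3 and 47.9 CPM in WT muscle against 51.6 and 55.5 CPM in Mef2dα2 Eko muscle (a gene picked with its values known). *Hsp90aa1*, a stress-induced chaperone, was at 65.5 and 126 CPM in WT muscle against 43.6 and 53.1 CPM in Mef2dα2 Eko muscle. Its WT mice stood far apart, the log2 fold change was -0.98 and the adjusted p 0.262 from edgeR. *Hsp90aa1* passed the threshold with the likelihood ratio test, the replicate block and no filter on low counts. It missed with DESeq2, limma-voom, the other scalings and the stricter filter. *Hsp90ab1* was at 1217 ± 144 and 1128 ± 110 CPM, and the phosphatase gene *Ppp2ca* at 123 ± 0.0308 and 113 ± 5.49 CPM in WT and Mef2dα2 Eko mice (SD, n = 2 mice).

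Of 16 genes for PKC anchors and partners, 15 were tested, with a median log2 fold change of 0.03. *Ldb3*, whose Z-disc protein binds PKC, was the most abundant, at 1747 and 1489 CPM in WT muscle against 1405 and 1315 CPM in Mef2dα2 Eko muscle (log2 fold change -0.25, adjusted p = 0.400 from edgeR). *Sqstm1*, whose product binds atypical PKC, overlapped between the genotypes at 468 ± 16.4 and 477 ± 47.1 CPM. Of 23 PKC and PKD substrate genes, 21 were tested, with a median of -0.002. At an unadjusted p under 0.05, 1 of them was lower and 3 were higher, where 6.41% and 5.15% of all genes were. *Ppp1r14c*, an inhibitor of a protein phosphatase that PKC makes more potent, was at 85.2 and 101 CPM in WT muscle against 120 and 120 CPM in Mef2dα2 Eko muscle, with a log2 fold change of 0.37, an adjusted p of 0.221 from edgeR and a call in DESeq2. *Marcks*, the classical membrane substrate of PKC, was at 18.3 and 19.2 CPM in WT muscle against 20.8 and 22.4 CPM in Mef2dα2 Eko muscle (log2 fold change 0.21, adjusted p = 0.400 from edgeR). *Pebp1* overlapped between the genotypes at 128 ± 21.3 and 120 ± 1.15 CPM.

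**Figure D5:**
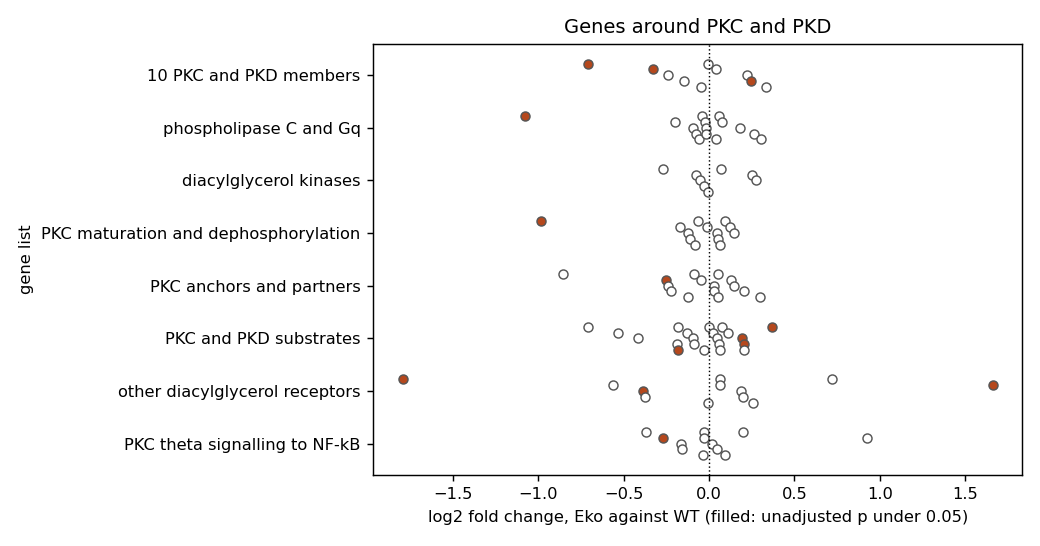
Log2 fold change of Mef2dα2 Eko against WT for each tested gene of the member list and of 7 lists around PKC and PKD, with 1 point per gene and filled points for an unadjusted edgeR p under 0.05. Most points lie near 0, and 3 of the 10 members are filled, where 11.6% of all genes would be.

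Markers of fiber types and of other cells are given beside these values. Of 10 fiber markers, *Myh1* and *Myh2*, the myosins of type IIx and IIa fibers, were lower in both Mef2dα2 Eko mice, at 4967 and 3984 CPM against 3476 and 3121 CPM and at 1576 and 1709 CPM against 1264 and 1041 CPM, and *Myh4* of type IIb fibers was at 64360 CPM in both WT mice against 65460 and 69590 CPM. The slow fiber gene *Myh7* was at 113 and 339 CPM in WT muscle against 237 and 145 CPM in Mef2dα2 Eko muscle. Adipocyte markers summed to 31.6 and 13.8 CPM in WT muscle against 17.2 and 5.44 CPM in Mef2dα2 Eko muscle, and Schwann cell markers to 23.2 and 25.8 CPM against 28.6 and 34.8 CPM. Fibroblast markers summed to 301 and 314 CPM against 341 and 263 CPM, smooth muscle and pericyte markers to 263 and 252 CPM against 276 and 311 CPM, and satellite cell markers to 4.06 and 3.81 CPM against 4.18 and 5.30 CPM. None of these markers passed the adjusted threshold with edgeR. At an unadjusted p under 0.05, 2 of 10 fiber, 2 of 4 adipocyte and 2 of 4 fibroblast markers were lower. At the same limit, 2 of 4 Schwann cell and 2 of 4 smooth muscle and pericyte markers were higher. Of all genes, 11.6% had such a p. The part of these markers in the values of *Prkca*, *Prkcd* and *Prkcq* was not tested.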

How the data were processed

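Quadriceps polyA RNA of 2 WT and 2 Mef2dα2 Eko mice was sequenced from a stranded kit, and genotype and replicate number were taken from the labels. The authors checked reads with FastQC, aligned them to mm10 and estimated gene counts with RSEM on an Ensembl annotation of GRCm38, and the submitters' processing notes name STAR 2.6.1a. The deposited expected counts are not normalized and were all whole, so rounding altered none. The strand setting is not given in the sources used here.

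Members and lists were chosen with earlier results of these data known. Counts were analysed in R 4.3.3 with edgeR 4.0.16 (TMM, default filter on low counts, prior count 0.125, adjusted p under 0.05), genotype being the only term. DESeq2 1.42.0 was an alternative, beside limma-voom 3.58.1, other filters and scalings, a likelihood ratio test, a replicate block and leaving out each mouse. Standard errors come from the log2 fold change and F statistic. Named genes were the members, related family genes and, in each list, every gene called, the 2 with the highest mean CPM and up to 2 with the largest log2 fold change at an unadjusted p under 0.05. Some genes that this rule names are not reported here. Positions and lengths are from GENCODE M21 on GRCm38, whose symbols can differ from the authors' annotation (*Cavin2* and *Cavin3* stand there as *Sdpr* and *Prkcdbp*). P-values measure the spread between these mice, and floors cover counting error only.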

Additional observations from a re-analysis of the deposited data

How the results depend on the processing

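Each of the 10 members was refitted under 13 alternatives, *Prkcb* under 12 because it was not tested with at least 1 CPM in 2 libraries. Of 129 member values, 109 kept their direction and side of the threshold, 10 passed it in place of missing it and 10 changed sign. The calls over all genes were 67 (50 lower, 17 higher), and 0 members and 0 genes of the lists passed. Without a filter on low counts 799 genes passed (496 lower, 303 higher), with 2 members (*Prkca*, *Prkcd*) and 7 list genes. With at least 1 CPM in 2 libraries 23 passed (18 lower, 5 higher). DESeq2 called 309 (181 lower, 128 higher) without and 318 (186 lower, 132 higher) with independent filtering, each time with the 2 members and 2 list genes. The likelihood ratio test called 312 (198 lower, 114 higher), with 1 member, *Prkcd*, and 2 list genes. RLE, upper-quartile and limma-voom called 58, 64 and 57 genes and no member. The replicate block called 186 (136 lower, 50 higher), with 1 member, *Prkcd* (adjusted p = 0.0206), and 1 list gene. The labels do not say that same-numbered mice belong together. Over the 16120 genes tested, the log2 difference between replicates 1 and 2 in WT mice had a correlation of 0.162 with that in Mef2dα2 Eko mice. With only 2 possible pairs of mice, whether the numbers pair them is not known. Leaving out single mice called 99 to 299 genes (74 to 172 lower, 25 to 127 higher), 0 to 1 members and 0 to 2 list genes. *Prkcd* passed without WT replicate 2 (adjusted p = 0.0441) and without Mef2dα2 Eko replicate 1 (0.0205) and missed without the other two. The log2 fold change of *Prkci* was 0.003 with RLE and with DESeq2. Leaving out single mice, it ran from -0.071 to 0.075 for *Prkci*, from -0.471 to 0.115 for *Prkcb*, from -0.294 to 0.277 for *Prkd2* and from -0.010 to 0.105 for *Prkce*. It changed sign for *Prkci* without WT replicate 1 (0.023) and Mef2dα2 Eko replicate 1 (0.075), for *Prkcb* without WT replicate 2 (0.028) and Mef2dα2 Eko replicate 2 (0.115), for *Prkd2* without WT replicate 2 (0.277) and Mef2dα2 Eko replicate 1 (0.132), and for *Prkce* without Mef2dα2 Eko replicate 1 (-0.010). The cause of these changes was not tested.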

Other observations

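Diacylglycerol also binds proteins outside the PKC and PKD kinases, and 12 of 13 genes of such receptors were tested, with a median log2 fold change of 0.06. None passed the adjusted threshold with edgeR, and 3 had an unadjusted p under 0.05, where 11.6% of all genes had one. *Rasgrp3*, an activator of Ras proteins, was the most abundant, at 49.4 and 52.3 CPM in WT muscle against 61.0 and 54.9 CPM in Mef2dα2 Eko muscle (log2 fold change 0.19, adjusted p = 0.432 from edgeR). *Cdc42bpa*, a kinase downstream of Cdc42, was at 35.9 ± 0.134 CPM in WT and 35.8 ± 2.21 CPM in Mef2dα2 Eko mice (SD, n = 2 mice). The Munc13 genes *Unc13c* and *Unc13d*, known from vesicle priming, were rare and stood in opposite directions. *Unc13c* had 20 and 27 counts in WT muscle against 96 and 56 in Mef2dα2 Eko muscle (log2 fold change 1.66, adjusted p = 0.161 from edgeR), and DESeq2 called it. *Unc13d* had 21 and 14 counts in WT muscle against 5 and 5 in Mef2dα2 Eko muscle (log2 fold change -1.79, adjusted p = 0.329 from edgeR).

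Of 12 genes that carry PKC theta signals to NF-kB in lymphocytes, all were tested, with a median of -0.03 and none past the adjusted threshold in edgeR. *Ikbkb*, a kinase of the inhibitor of NF-kB, was at 13.6 and 13.8 CPM in WT muscle against 11.9 and 10.8 CPM in Mef2dα2 Eko muscle (log2 fold change -0.27, adjusted p = 0.338 from edgeR), the single gene of the list with an unadjusted p under 0.05. *Ikbkg* was at 19.6 ± 0.285 and 20.2 ± 0.285 CPM, and *Nfkb1* at 16.7 ± 0.241 and 16.3 ± 0.219 CPM in WT and Mef2dα2 Eko mice (SD, n = 2 mice).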
